A study of Mus musculus with 20 samples.

Results

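The 10 genes described here encode the insulin-like growth factor Igf1, its receptor Igf1r, the IGF2 receptor Igf2r, the secreted binding proteins Igfbp2 to Igfbp7, and Irs1, the adaptor that couples the activated receptor to signalling inside the cell. They were taken by mouse gene symbol from the deposited count table, which holds 26722 genes, and all 10 were present. Total RNA was sequenced from C2C12, an established line of mouse myoblasts whose cells fuse into myotubes, after 5 days of differentiation and 16 h of treatment. The series has 20 libraries, 4 biological replicates of each of 5 treatments. The control cells received 7.7 nM b12 hIgG4, an antibody that served as negative control. The bivalent 13-3B5 group received 7.7 nM 13-3B5 hIgG4, which per the labels activates MuSK, the receptor tyrosine kinase of the neuromuscular synapse. The other 3 groups all received 0.1 nM neural agrin, the natural activator of MuSK, and one antibody at 7.7 nM: b12 hIgG4 in the group called agrin here, or 13-3B5xb12, or 11-3F6xb12. The labels describe 13-3B5xb12 and 11-3F6xb12 as monovalent antibodies that inhibit MuSK. No group was left without antibody, all cells are 1 cell line, and nothing in the labels says what libraries with the same replicate number share.

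IGF1 binds the tyrosine kinase Igf1r at the cell surface, and Irs1 carries the signal to phosphoinositide 3-kinase and Akt, a route that promotes muscle differentiation and growth. Igf2r, also the cation-independent mannose-6-phosphate receptor, takes up IGF2 for breakdown. The binding proteins hold IGFs outside the cell and can limit or prolong their access to the receptor, and Igfbp7 binds IGFs only weakly. Igfbp5 is known as a binding protein that myoblasts secrete as they differentiate.

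Replicates 1 and 2 of every treatment were compared with replicates 3 and 4, 10 libraries against 10. These replicate sets, called set 1-2 and set 3-4 here, were named from the first principal component of these same data, which holds 21% of the variance and separates all 10 from all 10. The p-values of that comparison therefore describe the split and do not measure chance. Total counts ran from 18424881 to 23343903 per library, and 3 counts, taken as the limit of detection, are 0.129 to 0.163 CPM (counts scaled to a common library total with TMM factors). The share of counts from mitochondrial genes had a median of 34.6% (30.2% to 39.1%) in replicates 1 and 2 and of 30.0% (27.9% to 32.5%) in replicates 3 and 4. Most of it was the ribosomal RNA gene mt-Rnr2, with medians of 31.6% and 27.4%. Control replicate 2 and agrin + 13-3B5xb12 replicate 1 stood apart on the second component, and in both the long genes were relatively high. All 16 myotube markers were detected, led by Ttn, Mylpf and Acta1. Summed markers reached at most 0.46 CPM for fat, 1.71 CPM for blood and 2.098 CPM for endothelial cells, and those of hepatocytes at most 0.633 CPM except for 13.8 CPM in agrin replicate 3.

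The members spanned a wide range of levels. Per kilobase of exon, Igfbp7 had the highest mean level with 185 ± 16.6 CPM per kb (SD, n = 20), followed by Igfbp6 with 147 ± 18.8 and Igfbp5 with 45.7 ± 11.7. In each of the 20 libraries these genes kept that order, and Igfbp5 stayed above every gene ranked below it. Irs1 followed with 11.7 ± 1.61 CPM per kb and Igfbp2 with 9.26 ± 2.83. Irs1 was the higher in 12 of 20 libraries, and their order went with the replicate set. In set 1-2 the lowest Irs1 (11.4 CPM per kb) exceeded the highest Igfbp2 (9.05), while in set 3-4 their means were 10.5 and 11.6. Igfbp4, Igf2r and Igfbp3 lay close together at 4.28 ± 1.62, 4.15 ± 0.776 and 3.63 ± 0.569 CPM per kb. Igfbp4 exceeded Igf2r in 10 of 20 libraries and Igf2r exceeded Igfbp3 in 11 of 20. The order of these genes also differed between the sets. Their means were 5.62, 4.82 and 3.30 CPM per kb in set 1-2 and 2.945, 3.48 and 3.97 in set 3-4. The receptor Igf1r had 2.02 ± 0.301 CPM per kb, and its ligand gene Igf1 was lowest with 1.34 ± 0.616.

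**Figure D1:**
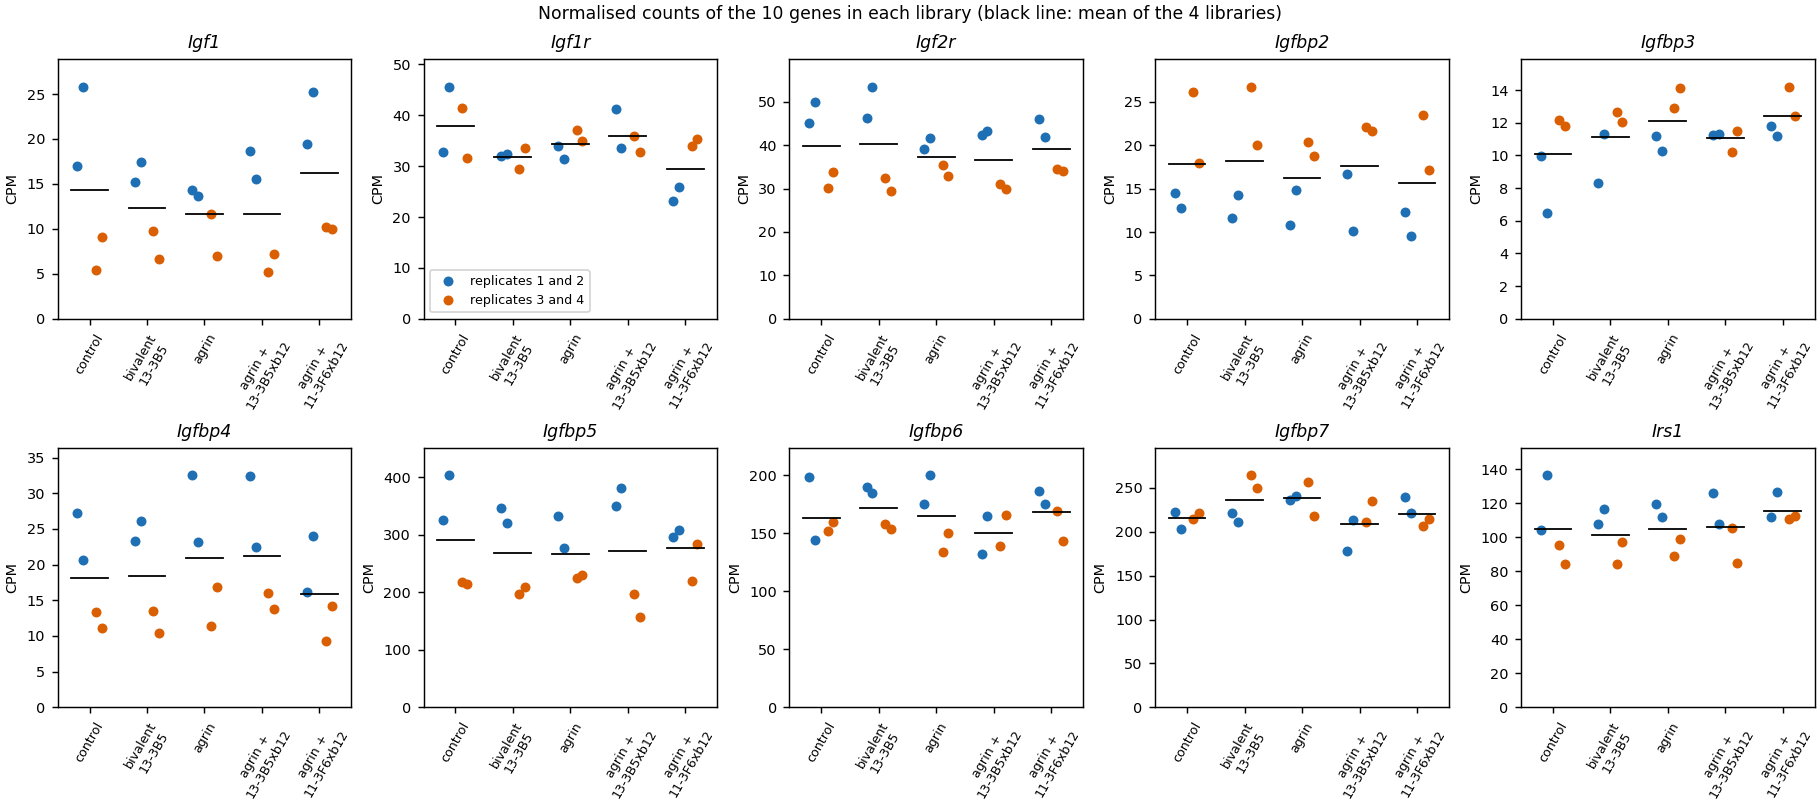
Normalised counts (CPM, linear axis from 0) of the 10 genes in each of the 20 libraries, by treatment, with replicates 1 and 2 in blue, replicates 3 and 4 in orange and the mean of the 4 libraries of a treatment as a black line. The orange points of Igf1 and Igf2r lie below every blue point and those of Igfbp2 above, while the black lines of the 5 treatments lie within the spread of the points.

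Between the sets, 7 of the 10 genes passed the test, against 13.1% of the 14605 genes tested. Of these, 6 were lower in replicates 3 and 4 (background 7.13%), namely Igf1, Igfbp4, Igfbp5, Igf2r, Irs1 and Igfbp6, and Igfbp2 was higher (background 5.93%). In 3 genes, Igf1, Igf2r and Igfbp2, the 10 and 10 libraries did not overlap, which held for 1.68% of all genes tested. The median log2 fold change of the 10 genes was -0.24, against 0.01 over all genes, and their median absolute log2 fold change was 0.38, against 0.12. The members were chosen with earlier results of these data known. These comparisons with all genes are therefore descriptions and do not test an excess among the members.

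The ligand showed the largest difference of the 10. Igf1 (chromosome 10, 87858265 to 87937042, + strand, GRCm38) had 13.6, 17.3 and 25.8 CPM (lowest, median, highest) in replicates 1 and 2, and 5.22, 8.19 and 11.6 CPM in replicates 3 and 4. Every library of set 3-4 lay below every library of set 1-2. The log2 fold change was -1.14 (SE 0.132, adjusted p = 4.85e-07), a mean 2.21 times lower. Within treatments it ran from -1.55 in control to -0.59 in agrin. The lower level was in replicates 3 and 4 in 5 of 5, which follows from the lack of overlap. The smallest gap was in the agrin group, where replicates 1 to 4 had 14.4, 13.6, 11.6 and 6.99 CPM. In control, where the gap was widest, the same replicates had 17.0, 25.8, 5.42 and 9.14 CPM.

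The other IGF gene could not be followed. Igf2 (ENSMUSG00000048583) was listed with 0 or 1 counts in every library. In GENCODE M21, Gm49394, annotated on the same strand, covers 62.8% of the exon bases of Igf2, and it had 0 to 12 counts. How reads shared by overlapping genes were counted is not given in the sources used here, so the level of Igf2 is uncertain. Igfbp1 was not among the genes of the deposited table.

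Among the receptors, Igf2r (chromosome 17, 12682406 to 12769664, - strand) had 39.2, 44.2 and 53.4 CPM in replicates 1 and 2, and 29.3, 32.7 and 35.5 CPM in replicates 3 and 4. The log2 fold change of Igf2r was -0.47 (SE 0.057, adjusted p = 1.5e-07). Igf2r was lower in replicates 3 and 4 within 5 of 5 treatments, which follows from the lack of overlap. Airn, an antisense transcript over the start of Igf2r, shares no exon bases with it and had 20 to 86 counts per library, with means of 2.01 CPM in replicates 1 and 2 and 1.91 CPM in replicates 3 and 4. Whether strand was used in counting is not given in the sources used here. Igf1r (chromosome 7, 67952827 to 68233668, + strand) did not pass the test between the sets. Its means were 33.2 ± 6.51 CPM and 34.6 ± 3.24 CPM (SD, n = 10 each), a log2 difference of 0.07 (SE 0.075, adjusted p = 0.629). Irs1 (chromosome 1, 82233101 to 82291416, - strand), which acts downstream of Igf1r, had 104, 114 and 136 CPM in replicates 1 and 2 and 84.0, 96.3 and 113 CPM in replicates 3 and 4. It was lower by 0.29 on the log2 scale (log2 fold change -0.29, SE 0.054, adjusted p = 0.000243), and 7 of 10 libraries of set 3-4 lay below all of set 1-2. Of the exon bases of Irs1, 30.9% are shared with Gm9747 on the other strand, which had 0 to 15 counts.

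Of the 6 binding proteins, 3 were lower in replicates 3 and 4, 1 was higher and 2 did not pass the test. Igfbp4 (chromosome 11, 99041244 to 99054392, + strand) had 16.2, 23.7 and 32.5 CPM in replicates 1 and 2 and 9.29, 13.4 and 16.8 CPM in replicates 3 and 4, a log2 difference of -0.93 (SE 0.101, adjusted p = 5.86e-08). All but 1 of the libraries of set 3-4, agrin replicate 4, lay below set 1-2, and within treatments the log2 fold change stayed between -1.04 and -0.77. Igfbp5 had 278, 329 and 403 CPM against 156, 216 and 284 CPM, or -0.64 on the log2 scale (SE 0.088, adjusted p = 7.47e-05). Here too 9 of 10 libraries lay below set 1-2, the exception being agrin + 11-3F6xb12 replicate 4.

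Igfbp2 went the other way. It had 9.59, 12.5 and 16.7 CPM in replicates 1 and 2 and 17.1, 21.03 and 26.7 CPM in replicates 3 and 4, with no overlap. The log2 fold change of Igfbp2 was 0.75 (SE 0.096, adjusted p = 4.37e-07), and it lay between 0.61 and 0.89 within the 5 treatments. Igfbp6 (chromosome 15, 102144362 to 102149511, + strand) was lower by a small amount, 175 ± 22.4 against 153 ± 11.5 CPM (SD, n = 10 each), with overlapping sets (log2 fold change -0.20, SE 0.062, adjusted p = 0.0356). That call was lost in 15 of 20 fits that left out 1 library, where the log2 fold change ran from -0.23 to -0.17 and the adjusted p reached 0.0752. Igfbp3 (chromosome 11, 7206086 to 7213923, - strand), with 10.3 ± 1.68 and 12.4 ± 1.19 CPM, just missed the threshold (log2 fold change 0.27, SE 0.094, adjusted p = 0.0502), and 6 of 20 such fits called it. Igfbp7 (chromosome 5, 77349240 to 77408041, - strand) was 219 ± 18.9 and 229 ± 20.9 CPM (log2 fold change 0.07, SE 0.046, adjusted p = 0.421), and 85 of its exon bases are shared with Polr2b on the other strand.

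**Figure D2:**
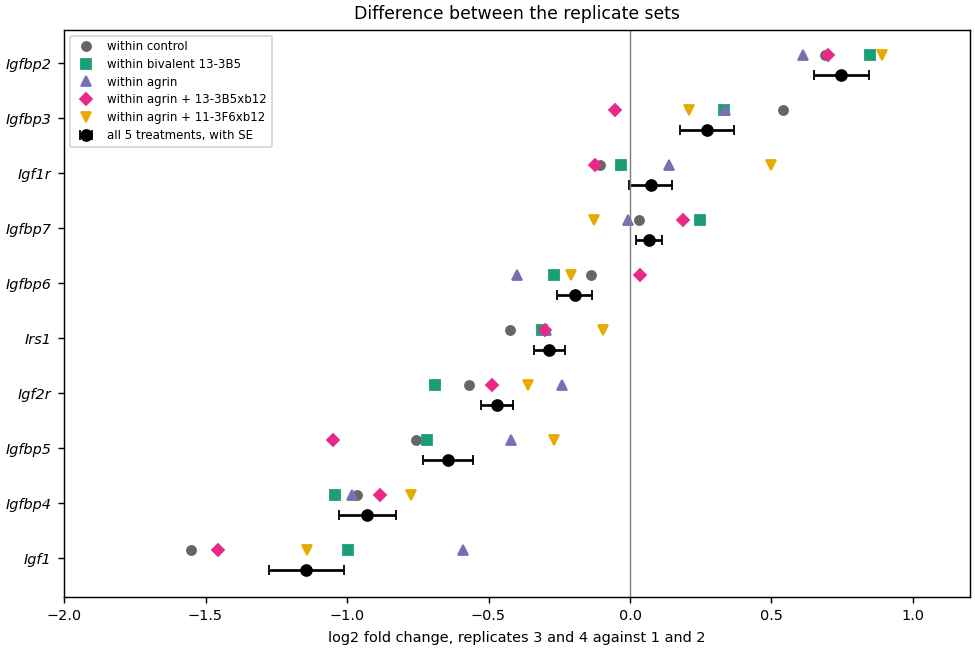
Log2 fold change of each gene between replicates 3 and 4 and replicates 1 and 2: black points with SE are from all 20 libraries, coloured symbols are the contrasts of 2 against 2 libraries within each treatment, from the model with the interaction. All 5 symbols of Igf1, Igfbp4, Igfbp5, Igf2r and Irs1 lie below 0 and all 5 of Igfbp2 above, while the symbols of the other 4 genes lie on both sides. For Igf1, Igf2r and Igfbp2 the shared side follows from sets that do not overlap.

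Igfbp2 and Igfbp5 are neighbours on chromosome 1 and point towards each other. Igfbp2 spans 72824503 to 72852474 on the + strand and Igfbp5 spans 72857932 to 72874884 on the - strand, with 5457 bases from end to end. They moved in opposite directions between the sets. The ratio of Igfbp5 to Igfbp2 CPM had a median of 26.9 (18.7 to 37.6) in replicates 1 and 2 and of 9.89 (7.23 to 16.5) in replicates 3 and 4. The lack of overlap follows from the levels above and is not a separate result. A link to the position of the genes was not tested.

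The windows of 250 bases before the start are shown for the 4 genes with the largest differences between the sets, since these genes shared a split but not a direction. They are RefSeq sequences of GRCm38.p6, 5′ to 3′ on the gene's strand. Capitals mark matches on either strand to CAGCTG (a myogenic E-box), TATAAA, the MEF2 motif (CTA and TAG with any 4 bases between them) or TGANTCA. The last is a loose form of the AP-1 motif, which has C or G where any base was allowed here. A match to the MEF2 motif can also hold TATAAA. For Igfbp2 the first of its 2 windows is shown, and the RefSeq start of Igf1 lies inside the GENCODE span given above.
Igf1, chr10:87860861-87861110, + strand: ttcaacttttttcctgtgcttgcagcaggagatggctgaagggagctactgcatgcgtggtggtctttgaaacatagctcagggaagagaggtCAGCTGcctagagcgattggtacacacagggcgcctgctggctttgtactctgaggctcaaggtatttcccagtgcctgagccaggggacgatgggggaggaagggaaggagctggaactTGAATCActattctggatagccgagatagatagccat
Igfbp4, chr11:99040994-99041243, + strand: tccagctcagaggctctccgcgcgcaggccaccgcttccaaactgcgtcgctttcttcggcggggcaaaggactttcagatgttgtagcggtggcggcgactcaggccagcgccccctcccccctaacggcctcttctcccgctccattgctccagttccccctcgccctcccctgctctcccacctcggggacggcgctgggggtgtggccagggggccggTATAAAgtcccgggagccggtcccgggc
Igfbp5, chr1:72874866-72875115, - strand: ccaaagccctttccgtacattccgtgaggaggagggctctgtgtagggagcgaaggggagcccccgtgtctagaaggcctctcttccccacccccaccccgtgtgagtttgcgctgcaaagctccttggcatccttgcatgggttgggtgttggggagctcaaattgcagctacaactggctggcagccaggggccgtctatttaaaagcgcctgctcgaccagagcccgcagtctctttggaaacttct
Igfbp2, chr1:72824230-72824479, + strand: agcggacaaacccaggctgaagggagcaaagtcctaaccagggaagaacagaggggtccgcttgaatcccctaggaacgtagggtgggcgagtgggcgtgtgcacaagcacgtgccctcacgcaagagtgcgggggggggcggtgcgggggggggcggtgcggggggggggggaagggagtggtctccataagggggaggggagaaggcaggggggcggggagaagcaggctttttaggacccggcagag
The Igf1 window holds 1 CAGCTG and 1 TGANTCA match, found in 13.1% and 6.73% of 32536 windows of this length. The TGANTCA match of Igf1 reads TGAATCA, which is not the AP-1 motif itself. The Igfbp4 window holds TATAAA starting 28 bases before the start, a match found in 12.3% of windows. Neither the Igfbp5 window nor this Igfbp2 window holds any of the 4 motifs, and the second Igfbp2 window holds 1 TGANTCA match, TGAGTCA. The MEF2 motif, at 3.22% of all windows, occurred in none of the 11 windows of the 10 genes. Igf1 has 5 CG dinucleotides in its window and Igf1r has 42, against a median of 6.

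The make-up of the binding protein transcripts is described next, with no test, as it follows from the levels above. Summed per kilobase, the 6 genes had 410 ± 29.4 CPM per kb in replicates 1 and 2 and 381 ± 17.3 in replicates 3 and 4 (SD, n = 10 each). Igfbp7 made up 44.1% ± 1.43 of that sum in set 1-2 and 49.7% ± 2.84 in set 3-4, and Igfbp6 38.3% ± 2.52 and 36.0% ± 2.57. The share of Igfbp5 was 13.7% ± 2.35 and 9.42% ± 1.57, and that of Igfbp4 1.38% ± 0.343 and 0.777% ± 0.165. The share of Igfbp2 went from 1.70% ± 0.394 to 3.05% ± 0.444. The shares add up to the whole, so they are not independent of each other.

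**Figure D3:**
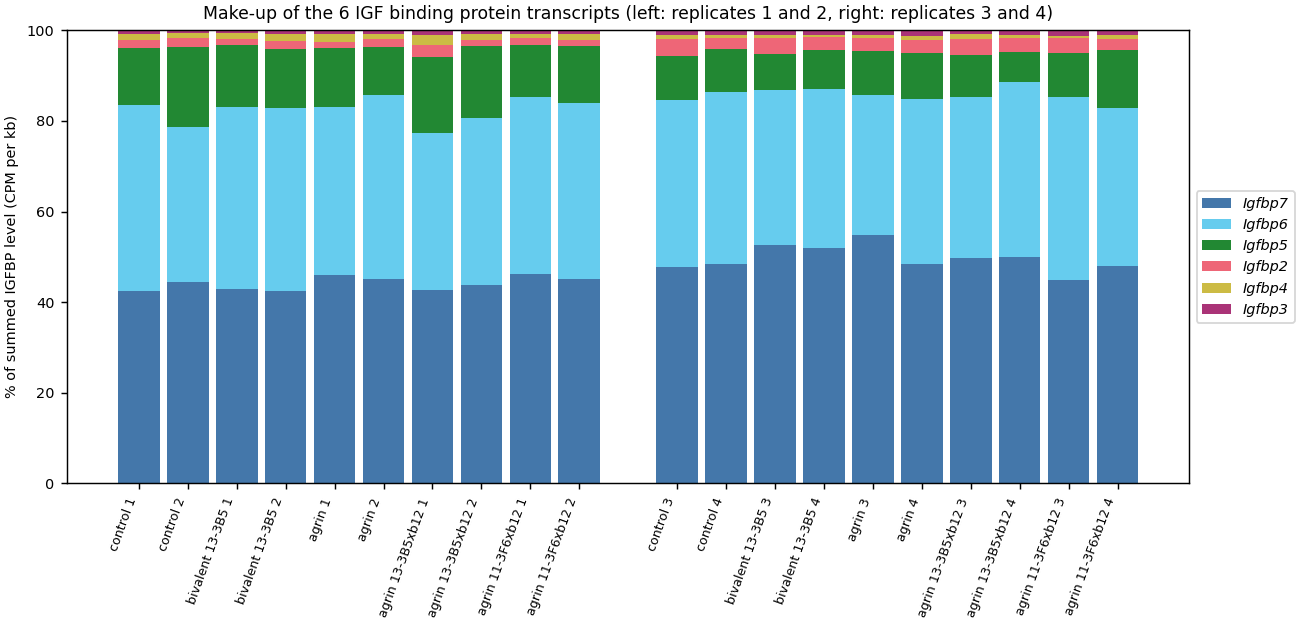
Share of each binding protein gene in the summed level of the 6 (percent of CPM per kb) in each library, with replicates 1 and 2 on the left and 3 and 4 on the right. Igfbp7 and Igfbp6 fill most of every bar, the Igfbp5 band is wider on the left (13.7% on average against 9.42%) and the Igfbp2 band on the right.

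Whether the difference between sets depended on treatment was tested with an interaction term. Across all genes 1 of 14605 was called (0.00685%), the myosin gene Myh4, and none of the 10 members. Igfbp5 had the smallest p-value of the members (unadjusted p = 0.000877, adjusted p = 0.966 by edgeR). Its log2 fold change between sets was -1.05 within agrin + 13-3B5xb12 and -0.27 within agrin + 11-3F6xb12. In the filtered fit Igf1r followed with an unadjusted p of 0.0352. With no filter on low counts Igfbp5 was called (adjusted p = 2.7e-05), as 1 of 61 genes. That fit took all genes with any count, and 532 of the 26722 listed had none. Its p-values are on another footing. Between the sets, Igfbp5 had a log2 fold change of -0.64 in both fits, with an adjusted p of 7.47e-05 with the filter and 7.64e-45 without.

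No member was called in any of the 6 comparisons between treatments or in the test of any treatment difference, and no gene of the 14605 was (0% called by edgeR; 349 to 617 genes had an unadjusted p under 0.05 in the 6 comparisons, and 329 in the overall test). The comparisons share control or agrin libraries. The median SE of the members' log2 fold changes was 0.18. For agrin against control it was 0.51 for Igf1, 0.41 for Igfbp4, 0.34 for Igfbp2 and 0.29 for Igfbp5. This fit leaves out the replicate set. With the set in the model these SEs were 0.21, 0.16, 0.15 and 0.14. On simulated counts of the agrin and control comparison, 49% of genes changed by 1.5-fold and 64% of those changed by 2-fold were recovered. That simulation changed 200 genes picked at random and drew noise for each library separately, with no difference between the sets. Its rates are therefore not the power for these members in the real data.

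In the fit without the replicate set, agrin against control gave log2 fold changes from -0.31 (Igf1, SE 0.509) to 0.26 (Igfbp3, SE 0.168). The smallest p-value belonged to Igfbp7, with 223, 204, 215 and 222 CPM in control replicates 1 to 4 and 237, 241, 257 and 218 CPM with agrin. Agrin replicate 4 lay among the controls (log2 fold change 0.14, SE 0.082, adjusted p = 1). For bivalent 13-3B5 against control the range was -0.25 to 0.14, with Igf1r at the lower end. Igf1r had 32.8, 45.6, 41.4 and 31.6 CPM in control and 31.9, 32.4, 29.5 and 33.5 CPM with the antibody. The groups overlapped (log2 fold change -0.25, SE 0.123, adjusted p = 0.999), and without control replicate 2 the log2 fold change was -0.15. Bivalent 13-3B5 and agrin, both activators of MuSK, differed by -0.19 to 0.17 on the log2 scale. Igf1r again had the smallest p-value (log2 fold change -0.11). With the set in the model Igfbp4 had it instead (log2 fold change -0.20, SE 0.159).

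The monovalent antibodies were each compared with agrin alone. Adding 13-3B5xb12 gave log2 fold changes from -0.19 to 0.13. Igfbp7, at the lower end, had 178, 213, 211 and 235 CPM (log2 fold change -0.19, SE 0.082, adjusted p = 0.999), and without 13-3B5xb12 replicate 1, which stands apart by length, the value was -0.12. Adding 11-3F6xb12 gave values from -0.40 (Igfbp4, SE 0.414) to 0.48 (Igf1, SE 0.508), with the smallest p-value for Igf1r. These are from the fit without the replicate set. With the set in the model, Igfbp4 had the smallest p-value (log2 fold change -0.37, SE 0.16, adjusted p = 0.934 by edgeR). Igf1 was then at 0.39 (SE 0.206). Igf1r had 33.95, 31.4, 37.0 and 34.9 CPM with agrin and 23.1, 25.8, 33.96 and 35.3 CPM with 11-3F6xb12 added. The first 2 of these replicates were below every agrin library and the other 2 were not (log2 fold change -0.22, SE 0.124, adjusted p = 1). Without 11-3F6xb12 replicate 1 the value was -0.11.

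The antibodies 13-3B5xb12 and 11-3F6xb12 were compared at the same dose with agrin. Igf1r had 41.3, 33.6, 36.0 and 32.8 CPM with 13-3B5xb12, so that its log2 fold change for 11-3F6xb12 was -0.28 (SE 0.124, adjusted p = 0.992), and -0.18 without 11-3F6xb12 replicate 1. Within replicates 1 and 2, with 2 libraries per treatment, it was -0.62 (SE 0.152, adjusted p = 0.089), and within replicates 3 and 4 it was 0.01. The 41.3 CPM came from 13-3B5xb12 replicate 1, in which long genes were relatively high. Without that library and control replicate 2, the comparison over the replicates left gave -0.21. With the set in the model, the SE of Igf1 and Igfbp4 narrowed. For 11-3F6xb12 against 13-3B5xb12, Igf1 was then at 0.52 on the log2 scale (SE 0.206, adjusted p = 0.66). Igfbp4 was at -0.40 (SE 0.16, adjusted p = 0.666) and Igf1r at -0.29 (adjusted p = 0.692). None passed the threshold in that fit, in which 10 of 14605 genes were called (0.0685%). In that fit 2 genes were called between 11-3F6xb12 and agrin (0.0137%) and 5 in the overall test (0.0342%), with no member among them.

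**Figure D4:**
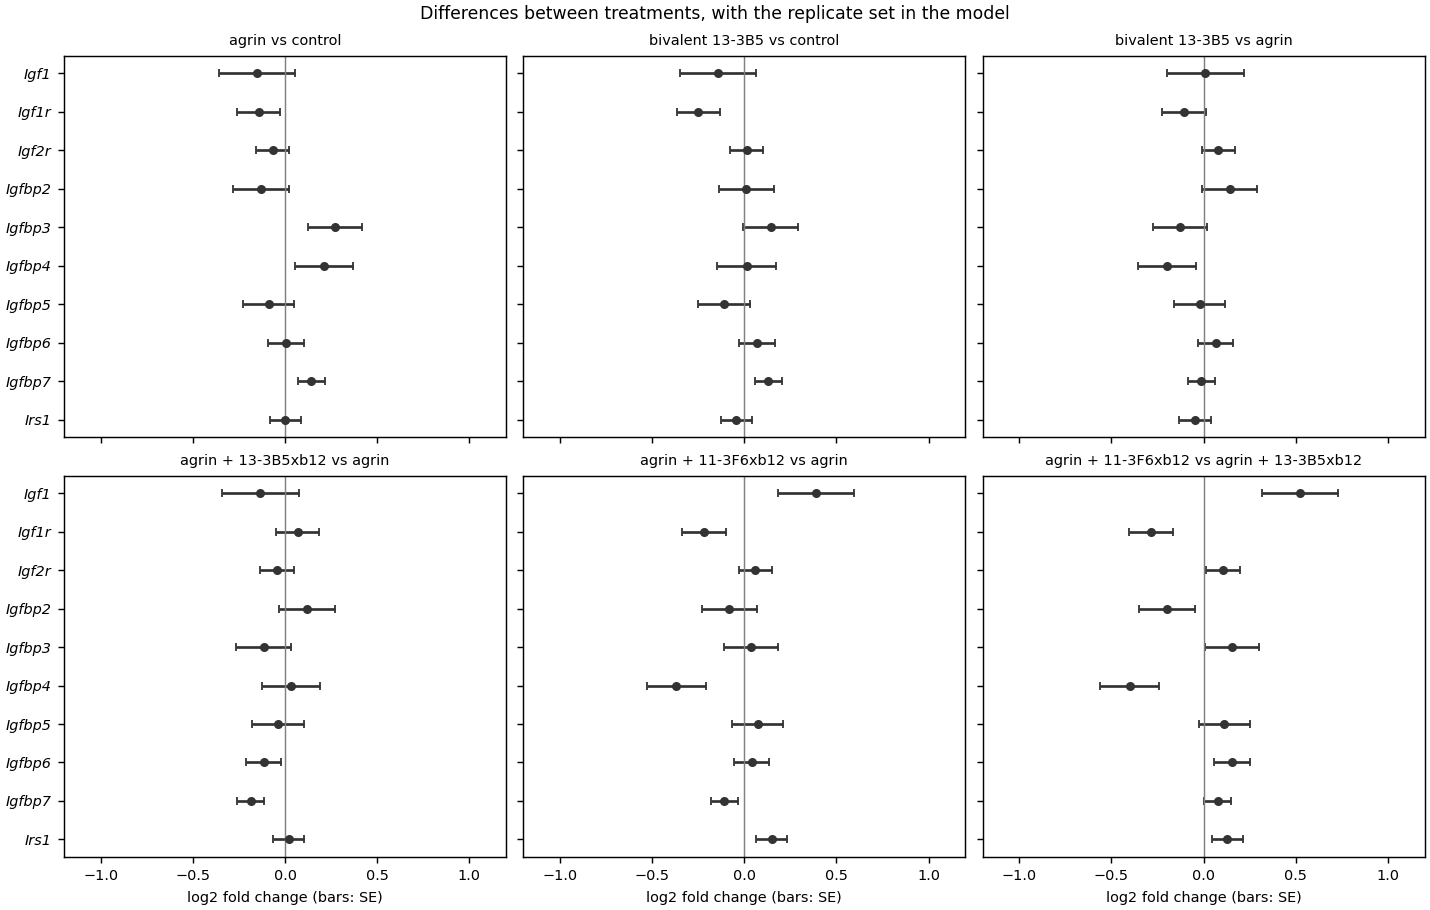
Log2 fold change with SE of each gene in the 6 comparisons of treatments, from the fit that has the replicate set as a term. Most points lie within 0.3 of 0, and the farthest is Igf1 at 0.52 between the monovalent antibodies; no gene passed the threshold.

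Of 51 other genes of the IGF pathway, 48 were in the table and 41 were tested, and 4 of these passed the test between the sets, against 13.1% of all genes. Htra1, a secreted protease that cleaves binding proteins, was lower in replicates 3 and 4 (93.5 against 69.3 CPM, log2 fold change -0.43, adjusted p = 1.96e-08). Higher were Socs3 (37.3 against 53.7 CPM, log2 fold change 0.51, adjusted p = 0.00012) and Socs2 (40.0 against 49.9 CPM, log2 fold change 0.32, adjusted p = 2.91e-05), both suppressors of cytokine signalling. Stc2, a stanniocalcin that inhibits the protease PAPP-A, was also higher (log2 fold change 0.42, adjusted p = 0.0431). The insulin receptor Insr had 26.3 and 26.7 CPM and did not pass the test (adjusted p = 0.883). The list's median log2 fold change was 0.02. In the 6 treatment comparisons 0 of the 41 were called, and 0 to 2 had an unadjusted p under 0.05.

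Some cell type markers differed between the sets and most did not pass the test. Of the 16 myotube markers 5 were lower in replicates 3 and 4 (Ckm, Tnnt3, Tnni2, Mef2c and Ryr1), and the summed level was 15770 to 17770 CPM in set 1-2 and 13380 to 16530 CPM in set 3-4. Of 6 myoblast or reserve cell markers 2 were higher, Cd34 and Sdc4, with sums of 1825 to 2009 and 1866 to 2118 CPM. Of 6 fibroblast markers tested 3 were lower, Col1a1, Col3a1 and Lum, with sums of 4910 to 5485 and 4263 to 5165 CPM. Of 8 markers of dividing cells Ccnb1 was lower and Rrm2 higher, with sums of 175 to 265 and 160 to 285 CPM. Over all genes tested, 7.13% were called lower and 5.93% higher. Their part in the differences of the IGF genes was not tested, and in these bulk samples fewer cells of a type and less RNA per cell cannot be told apart.

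The variation left within sets followed exon length for some members. For each library, the slope of its deviations in log2 CPM on log2 exon length was taken over 11148 genes. It was 0.099 in control replicate 2 and 0.12 in agrin + 13-3B5xb12 replicate 1, and its medians were -0.023 and -0.009 in the sets. Over the 10 libraries of each set, log2 CPM of Igfbp6, with the shortest exons of the 10 (1112 bases), correlated with the slope at r = -0.97 and -0.82. Igf1r, with the longest (16791 bases), did so at 0.79 and 0.77, and Igf1 at 0.45 and 0.03. The slope was computed from the same libraries, so these are descriptions. With the slope as a covariate, chosen after seeing the data, the differences between sets were -1.13 for Igf1, -0.93 for Igfbp4, -0.64 for Igfbp5 and 0.75 for Igfbp2. Igfbp6 stayed lower in that fit (log2 fold change -0.20, adjusted p = 2.34e-06), and Igfbp3 passed the threshold (0.27, adjusted p = 0.0309). In the comparison of 11-3F6xb12 with 13-3B5xb12 the log2 fold change of Igf1r was then -0.15, and for bivalent 13-3B5 against control it was -0.10.

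**Figure D5:**
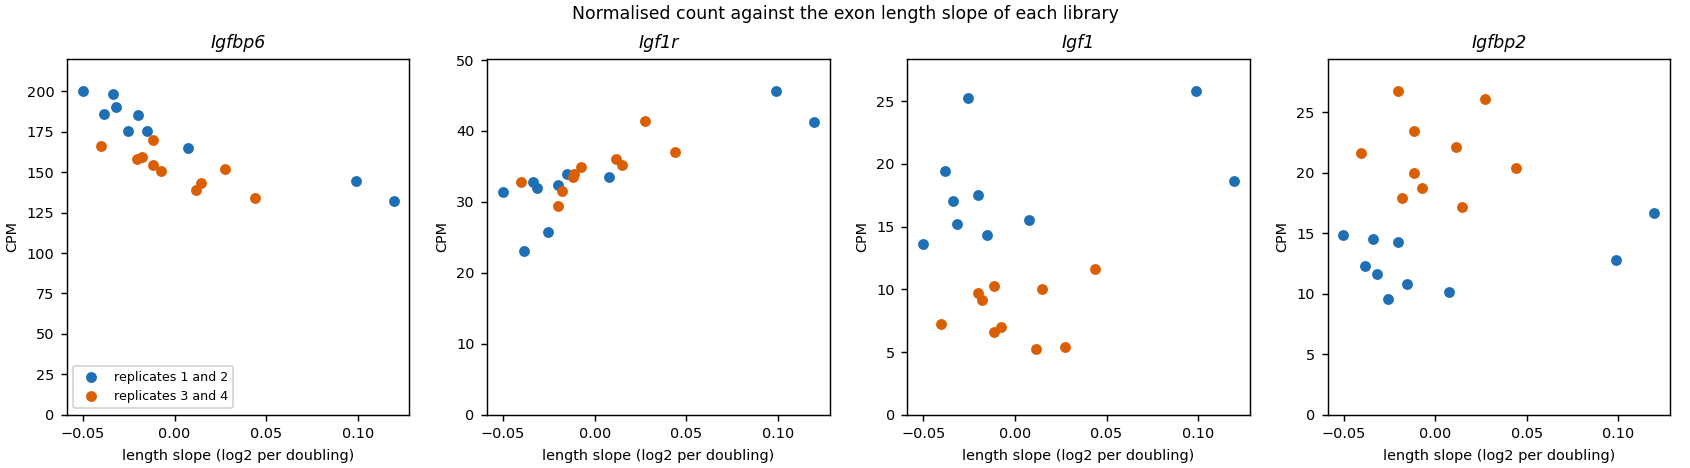
CPM of Igfbp6, Igf1r, Igf1 and Igfbp2 against each library's slope of log2 deviations on log2 exon length, with replicates 1 and 2 in blue and 3 and 4 in orange. Igfbp6 is lower and Igf1r higher at higher slopes in both sets, while the sets do not overlap in Igf1 or Igfbp2.

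The genes most like each member were those with the highest value of the lower of 2 Pearson correlations of log2 CPM, 1 over the 10 libraries of each set. For Igfbp5 these were Peg3, an imprinted zinc finger gene (r = 0.83 and 0.86), and Piezo1, a mechanosensitive channel (0.85 and 0.83), and Peg3 was also lower in replicates 3 and 4 (log2 fold change -0.30, adjusted p = 8.73e-06). For Igf1r they were Usp32 (0.95 and 0.92) and Tbcel (0.89 and 0.88), and for Igfbp6 they were Arpc3 (0.94 and 0.92) and Hagh (0.91 and 0.95). Igfbp7 was most like Srpk3 (0.84 and 0.90) and Ppic (0.95 and 0.82), and Irs1 most like Fgd1 (0.86 and 0.94) and Sema3d (0.86 and 0.77). Igfbp4 was most like Magea8 (0.89 and 0.89) and the intermediate filament gene Nes (0.75 and 0.75), and Igfbp2 most like Asic1 (0.96 and 0.90) and Ss18 (0.75 and 0.82). Igf1 had Pcyox1 (0.75 and 0.73) and Zbtb37 (0.73 and 0.75), Igf2r had Myom1 (0.72 and 0.74) and Larp4b (0.74 and 0.67), and Igfbp3 had Mat2b (0.71 and 0.71) and Arpc4 (0.85 and 0.70). Among the members themselves, the highest pair by the same measure was Igf1r and Irs1 (0.45 and 0.41). Negative in both sets were, among others, Igf1r and Igfbp6 (-0.67 and -0.49), Igfbp5 and Igfbp6 (-0.67 and -0.43) and Igfbp7 and Irs1 (-0.49 and -0.66). These values are over libraries that share depth and length effects, and each like gene was the best or next best of all genes tested. Likeness within sets did not fix the difference between sets. Peg3, Myom1, Arpc4 and Ppic passed that test with the sign of their member. Nes (log2 fold change 0.16, adjusted p = 0.00151) and Srpk3 (-0.36, adjusted p = 0.00011) passed it with the opposite sign, and the other like genes did not pass. Igfbp7, the member of Ppic and Srpk3, and Igfbp3, the member of Arpc4, did not pass that test themselves. The sign of these members is therefore not settled.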

How the data were processed

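Total RNA of C2C12 myotubes was measured in 20 libraries, made with a stranded, ribosomal RNA-depleted kit per the labels' protocols. The deposited table holds unnormalized whole-number counts per gene. The submitters' processing notes name Trim Galore 0.6.6, cutadapt 2.10, STAR 2.7.6a, HTSeq 0.12.4, DESeq2 1.32.0 and the GRCm38 build, without their roles. The counting mode, strand setting and annotation release are not given in the sources used here. Lengths and positions are from GENCODE M21.

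Groups came from the labels. The members and lists were chosen with earlier results of these data known. Counts were fitted in R 4.3.3 with edgeR 4.0.16: filterByExpr (minimum count 10, total 15) left 14605 genes, with TMM scaling, robust quasi-likelihood F-tests, two-sided, and Benjamini-Hochberg adjustment over all genes at 0.05. Treatments were fitted alone (15 residual degrees of freedom), replicate sets with treatment in the model (14), and their interaction (10). An SE is the log2 fold change over the square root of F. Log2 CPM used a prior count of 2.

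All 10 genes were named with their levels; in each treatment comparison the member with the smallest p-value was named, with the range of the others. Each replicate pair within a treatment differed by more than sampling noise (chi-square of at least 5.17 per gene). The scripts were tested on simulated data. Replicates are biological per the labels, which do not say whether they are separate cultures of 1 passage. Floors cover counting error only. Alternatives included DESeq2 1.42.0, other filters and scaling, the set or replicate number in the model, and leaving out each library.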

Additional observations from a re-analysis of the deposited data

Results flagged for a closer look

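Of 70 groups of libraries tested over the 10 genes, 1 held a library far from the others, where chance gives about 1 in 20. Irs1 in agrin + 11-3F6xb12 had 127 CPM in replicate 2 and 110 to 113 CPM in the other 3, a gap of 0.856 of the range and above Dixon's critical value.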

How the results depend on the processing

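In every alternative run, 0 members were called between treatments (135 tests). Genes called changed as follows, in the order agrin against control, bivalent 13-3B5 against control and against agrin, 13-3B5xb12 against agrin, 11-3F6xb12 against agrin, and 11-3F6xb12 against 13-3B5xb12. With no filter on low counts they were 4, 2, 7, 6, 13 and 27, and 50 in the overall test. With no filter the interaction test called 61 genes and 1 member, Igfbp5, and without control 2 and agrin + 13-3B5xb12 1 it called 4 genes. With the set as a term the last 2 comparisons called 2 and 10 genes and the overall test 5, and the Wald test of DESeq2 called 2 genes in the last comparison. That Wald test was not run for the overall and interaction tests.

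Replicate numbers were not taken as pairing libraries: over all genes tested, deviations of same-numbered libraries correlated above 0.1 in 3 of 24 pairs (21 of 24 for genes with a mean log2 CPM above 1). The mean was 0.077, against 0.082 for the other number of the same set and -0.079 across sets. With the replicate block the last 2 comparisons called 2 and 5 genes and the overall test 2. In these, Ogn and mt-Nd1, then Aspn, Ogn, Hp, Tspan8 and Spon2, and Ogn and Spon2 overall were named after their values were seen; no member was called.

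Between the replicate sets, contrasts within 1 treatment, taken from the 1 model of all 20 libraries with the interaction, called 388 genes and 4 members in control, 162 and 3 with bivalent 13-3B5, 193 and 0 with agrin, 260 and 3 with agrin + 13-3B5xb12, and 215 and 2 with agrin + 11-3F6xb12. Each contrast compares 2 against 2 libraries. The direction turned for Igf1r within control (-0.105), bivalent 13-3B5 (-0.031) and agrin + 13-3B5xb12 (-0.123), for Igfbp7 within agrin (-0.006) and agrin + 11-3F6xb12 (-0.129), and for Igfbp3 (-0.054) and Igfbp6 (0.037) within agrin + 13-3B5xb12. Leaving out 1 library gave 1651 to 2101 genes and 6 to 8 members. The other alternatives, the added length covariate among them (2689 genes, 8 members), kept counts within 1.5 times. Igf1, Igf2r, Igfbp2, Igfbp4, Igfbp5 and Irs1 each lost their call in 2 to 5 of the contrasts within 1 treatment and in no other alternative run.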
